A study of Mus musculus with 203 samples.

Results

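The genes described here are 10 components of the mouse inflammasome and pyroptosis machinery, namely the sensors Nlrp3, Nlrp1b, Nlrc4, Naip2, Naip5 and Aim2, the adaptor Pycard, the proteases Casp1 and Casp4, and the pore-forming protein Gsdmd. They were chosen by gene symbol, with earlier results of these data known. Each of the 10 was found once among the 25094 genes listed for the macrophage line RAW264.7 (RAW cells). All 10 are also listed for cultured bone marrow macrophages (BMDMs), from mice with or without macrophage Gps2, but what is held for those 16 libraries are fold changes and p-values made by the authors, so no BMDM value is given.

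An inflammasome is a cytosolic platform that forms when a sensor meets a danger or microbial signal. The sensor recruits Casp1, often through the adaptor ASC (the product of Pycard), and the active protease cuts the cytokines IL-1β and IL-18 and the protein gasdermin D (the product of Gsdmd), whose fragment opens pores in the plasma membrane and leads to the lytic death called pyroptosis. Macrophages are the classical cell type in which this pathway is studied, and several of its genes are known to be primed by inflammatory or interferon signals before the platform is assembled.

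The RNA-seq values came from 16 RAW libraries in 4 groups of 4. RAW cells are a transformed macrophage line of BALB/c mouse origin. One stable line carried a lentiviral hairpin against GFP (shGFP) and the other a single hairpin against Kdm1a (shKDM1A), which encodes the lysine demethylase KDM1A, and each line was studied without interleukin 4 (IL4) or after IL4 at 20 ng/ml for 6 h. IL4 drives macrophages toward the alternative (M2) state, and the design asks how IL4 and KDM1A depletion each change expression and whether the IL4 response differs between both lines. Each line stands for 1 hairpin and 1 selected population, and the labels do not say whether the 4 libraries of a group came from separate cultures. The study's methods state for all experiments together that biological replicates were used. If the libraries share a culture, p-values measure only the spread between these samples, which may be technical.

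The deposited totals ran from 17554721 to 27782568 tags per library. Kdm1a, the targeted gene, checked the labels. Its log2 value was 11.21, 11.23, 11.13 and 11.17 in shGFP cells without IL4, 11.12, 11.10, 11.12 and 11.07 in shGFP cells with IL4, 10.36, 10.32, 10.23 and 10.29 in shKDM1A cells without IL4, and 10.32, 10.33, 10.34 and 10.28 in shKDM1A cells with IL4. The knockdown lowered it by a log2 change of -0.88 without and -0.79 with IL4. The mannose receptor gene Mrc1, a standard IL4 target, rose with IL4 by 1.32 in shGFP and 0.50 in shKDM1A cells. Of 9 macrophage markers, 8 were above the minimum level in all 16 libraries (Mertk was not), whereas none of the T cell, B cell, fibroblast and epithelial markers reached it in any library. Of 4 granulocyte markers S100a8 (1.21 to 1.26), and of 3 dendritic cell markers Zbtb46 (4.04 to 4.22) and Xcr1 (1.98 to 2.04), reached it in all 16 libraries, while Ly6g, S100a9, Mpo and Flt3 reached it in 0. The summed macrophage marker level moved with the groups, from 17.63 to 17.68 in shGFP cells without IL4, 17.31 to 17.33 with IL4, 17.83 to 17.86 in shKDM1A cells without IL4 and 17.74 to 17.83 with IL4, on the log2 scale. Since unlogged values were summed, this level mostly follows Lyz2 (log2 16.35 to 17.18), with Csf1r next (14.97 to 15.49). The part of the summed level in the results below was not tested.

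Promoter sequences (RefSeq, build GRCm38.p6, 250 bases before to 50 after the start of transcription) were found for 9 of the 10 genes, with Gsdmd as the exception. The sequences shown are those of the 2 sensors that fell most with KDM1A knockdown without IL4 (Aim2 and Nlrp3), of the sensors Naip5 and Naip2, which rose, and of Pycard, which did not reach the minimum level in any library. Capitals mark matches on either strand to the letters of 4 motifs, GAGGAAGT for PU.1, TTCNNNNGAA for STAT factors, TGANTCA for AP-1 and the interferon element GAAANNGAAA, and overlapping matches would be joined. Other spacings of the STAT letters were not searched.
Aim2, chr1:173420354-173420653, plus strand: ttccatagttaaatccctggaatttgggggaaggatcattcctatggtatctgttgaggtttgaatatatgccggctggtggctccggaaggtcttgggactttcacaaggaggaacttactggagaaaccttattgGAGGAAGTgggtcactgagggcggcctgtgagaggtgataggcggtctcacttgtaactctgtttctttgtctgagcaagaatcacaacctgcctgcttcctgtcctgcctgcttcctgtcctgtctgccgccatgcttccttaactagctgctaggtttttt
Nlrp3, first of 2 starts, chr11:59542436-59542735, plus strand: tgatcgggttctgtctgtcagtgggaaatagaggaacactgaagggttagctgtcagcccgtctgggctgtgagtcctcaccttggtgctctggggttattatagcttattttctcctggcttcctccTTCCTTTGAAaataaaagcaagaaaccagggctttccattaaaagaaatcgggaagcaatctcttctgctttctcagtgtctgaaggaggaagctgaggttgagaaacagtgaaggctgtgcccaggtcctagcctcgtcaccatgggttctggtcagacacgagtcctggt
Naip5, chr13:100247287-100247586, minus strand: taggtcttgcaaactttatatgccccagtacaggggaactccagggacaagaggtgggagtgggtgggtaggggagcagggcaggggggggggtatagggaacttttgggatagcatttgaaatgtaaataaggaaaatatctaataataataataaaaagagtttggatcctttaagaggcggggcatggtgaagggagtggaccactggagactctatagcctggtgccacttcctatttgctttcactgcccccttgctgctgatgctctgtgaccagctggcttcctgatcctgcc
Naip2, chr13:100202073-100202372, minus strand: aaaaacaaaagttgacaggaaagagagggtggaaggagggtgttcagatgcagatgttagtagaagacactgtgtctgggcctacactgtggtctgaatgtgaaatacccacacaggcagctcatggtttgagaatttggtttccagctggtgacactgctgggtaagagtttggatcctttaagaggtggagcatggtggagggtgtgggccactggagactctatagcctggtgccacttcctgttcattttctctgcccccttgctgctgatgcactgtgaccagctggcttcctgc
Pycard, chr7:127993818-127994117, minus strand: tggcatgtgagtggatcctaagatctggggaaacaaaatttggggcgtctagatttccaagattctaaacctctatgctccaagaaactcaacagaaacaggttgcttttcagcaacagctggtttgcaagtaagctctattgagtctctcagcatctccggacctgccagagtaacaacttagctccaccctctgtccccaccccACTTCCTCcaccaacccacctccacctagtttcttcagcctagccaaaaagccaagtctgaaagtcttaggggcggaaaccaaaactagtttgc
The PU.1 letters stood in the promoters of Aim2, Pycard and 1 of 2 Nlrp1b starts, and in 3.2% of all 32851 promoters of this length. The STAT letters stood in 1 of 2 Nlrp3 starts (the one shown, beginning at position -122 from the start) and in the other Nlrp1b start, against 6.95% of all promoters. The AP-1 and interferon element letters were in none of the 9 genes' promoters, and in 7.81% and 3.44% of all promoters. The promoters of the 9 genes held 0 to 5 CpG dinucleotides each, where the median promoter held 7. These are descriptions of letters in a window, and no binding was measured here.

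The genes spanned a wide range of levels. To compare genes, each mean log2 value in shGFP cells without IL4 was taken per kb of transcript, which lowers it by the log2 of the transcript length. On this per-kb level, Gsdmd (mm9 chr15:75692769-75697834) was highest at 9.83, followed by Casp1 (chr9:5298517-5307281) at 9.01. Nlrp3 (chr11:59356188-59380455) and Aim2 (chr1:175350735-175396167) came next at 8.66 and 8.60, and their libraries overlapped, so that this pair had no clear order. Naip2 (chr13:100914018-100972077) was at 7.11, Nlrp1b (chr11:70966604-71014958) at 6.73 and Casp4 (chr9:5308849-5336791) at 6.10. Naip5 (chr13:100981695-101017291) at 4.92 and Nlrc4 (chr17:74825635-74858448) at 4.52 were the lowest of those detected. Apart from Nlrp3 and Aim2, neighbours in this order did not overlap over the 4 libraries. The per-kb level of Gsdmd lay above 84.6% of the 12905 genes tested, and that of Nlrc4 above 19.2%.

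Pycard (chr7:135134887-135137381) stood apart. Its deposited log2 value lay between -0.12 and -0.08 in all 16 libraries, and it reached the minimum of 1 in 0 of them. RAW cells are known to lack ASC. Pycard was therefore not tested, and the counts below are over the other 9 genes.

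**Figure D1:**
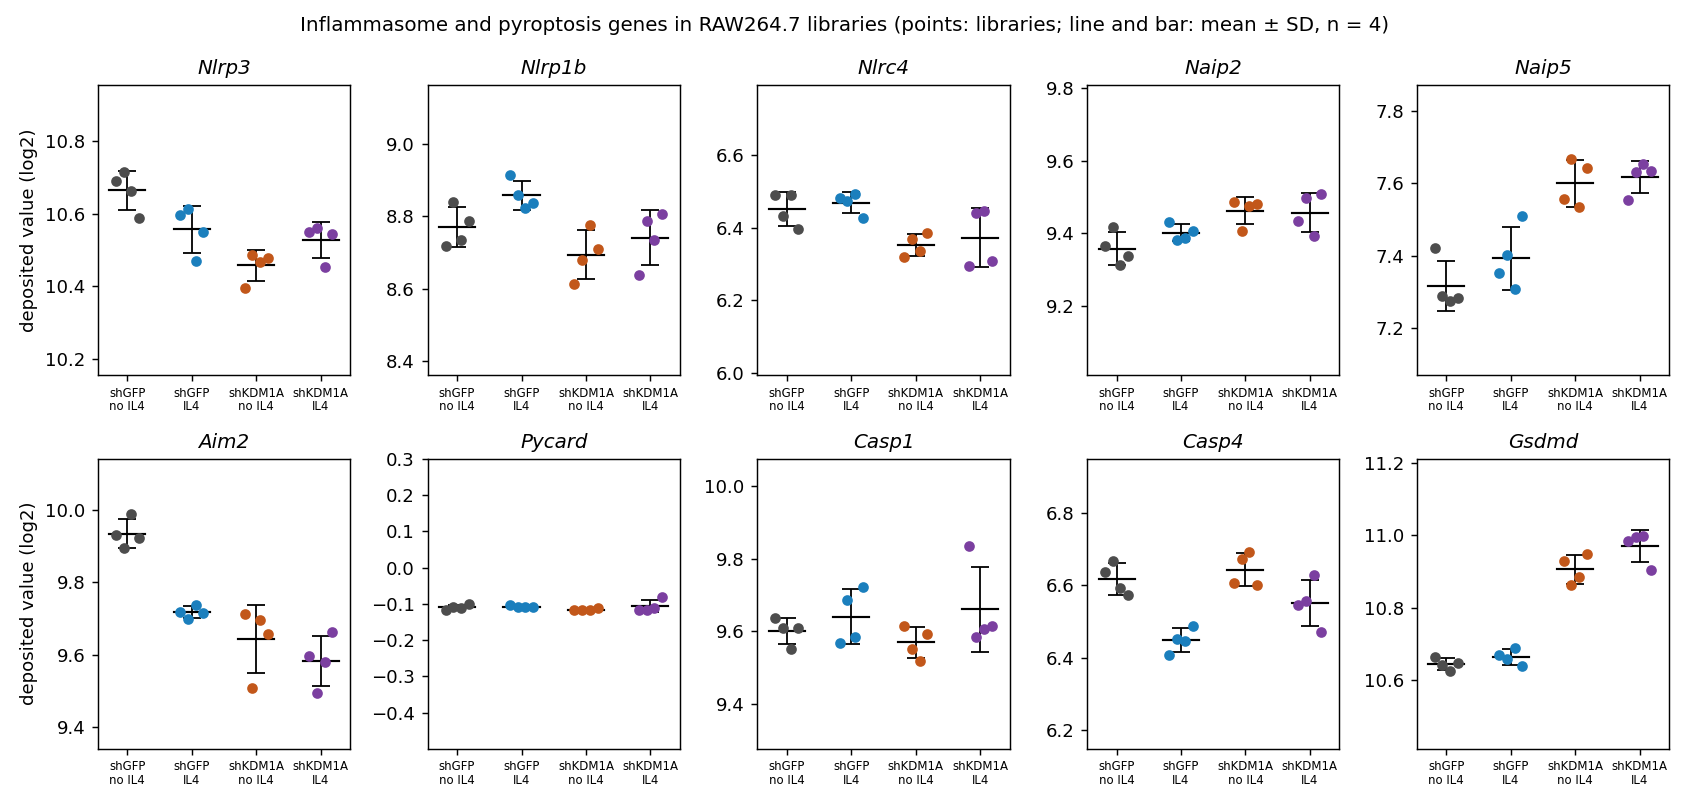
Deposited log2 values of the 10 genes (one panel each, y axis in log2 units with the same span of 0.8 in every panel) in the 4 groups of RAW libraries, with points for libraries and a line and bar for mean ± SD of 4 libraries. Gsdmd and Naip5 sit higher in both shKDM1A groups than in both shGFP groups, Aim2 is highest in shGFP cells without IL4, and Pycard lies flat near -0.1.

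Among the cytosolic sensors, Aim2 and Nlrp3 fell with KDM1A depletion in cells without IL4. Aim2 recognises double-stranded DNA in the cytosol. Its log2 value was 9.93, 9.89, 9.99 and 9.92 in shGFP cells without IL4, and 9.71, 9.51, 9.70 and 9.66 in shKDM1A cells without IL4. The 2 groups did not overlap. The difference was -0.29 (SE 0.041, adjusted p = 2.63e-05). With IL4, Aim2 was at 9.72, 9.70, 9.74 and 9.72 in shGFP cells and at 9.60, 9.49, 9.58 and 9.66 in shKDM1A cells. Here too every shKDM1A library lay below every shGFP library. That difference was -0.13 (SE 0.041, adjusted p = 0.0151), and the call was lost without library 2 of shKDM1A cells with IL4 (-0.10, adjusted p = 0.0521). IL4 itself lowered Aim2 in shGFP cells by 0.22 on the log2 scale (adjusted p = 0.000722), with no overlap between the groups. In shKDM1A cells the IL4 difference of Aim2 was -0.06 (95% interval -0.15 to 0.03, adjusted p = 0.325), and it was called without library 2 of shKDM1A cells without IL4 (-0.10, adjusted p = 0.0315).

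Nlrp3 encodes the sensor that responds to potassium efflux and many kinds of cell stress. Its value was 10.69, 10.71, 10.66 and 10.59 in shGFP cells without IL4 and 10.40, 10.49, 10.47 and 10.48 in shKDM1A cells without IL4. These groups did not overlap, with a difference of -0.21 (SE 0.036, adjusted p = 0.000211). With IL4 the values were 10.60, 10.61, 10.47 and 10.55 in shGFP cells and 10.55, 10.56, 10.45 and 10.54 in shKDM1A cells. These 2 groups overlapped, and their difference was -0.03 (95% interval -0.11 to 0.04, adjusted p = 0.527). IL4 lowered Nlrp3 in shGFP cells by 0.11 on the log2 scale (adjusted p = 0.0352), although the groups overlapped. This call was lost without library 1, 2 or 3 of shGFP cells without IL4 or library 3 or 4 of shGFP cells with IL4, with differences from -0.11 to -0.08 and adjusted p from 0.0637 to 0.125. In shKDM1A cells the IL4 difference was 0.07 (95% interval -0.01 to 0.14, adjusted p = 0.177). The knockdown comparison without IL4 and the IL4 comparison in shGFP cells share the same 4 shGFP libraries, in which both Aim2 and Nlrp3 were highest.

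Nlrp1b, a sensor activated when pathogen proteases or loss of dipeptidyl peptidase activity release its active fragment, was at 8.91, 8.86, 8.82 and 8.84 in shGFP cells with IL4 and at 8.64, 8.79, 8.73 and 8.81 in shKDM1A cells with IL4. The 2 groups did not overlap, but the difference of -0.12 (SE 0.040, adjusted p = 0.0285) was not a firm one. It was lost without library 1 or 2 of shGFP cells with IL4 or library 1 or 3 of shKDM1A cells with IL4 (-0.12 to -0.08, adjusted p from 0.0538 to 0.103). Without IL4 the values were 8.72, 8.84, 8.73 and 8.79 in shGFP cells and 8.61, 8.68, 8.78 and 8.71 in shKDM1A cells, which overlapped (difference -0.08, 95% interval -0.16 to 0.01, adjusted p = 0.155). IL4 gave differences of 0.09 and 0.05 in shGFP and shKDM1A cells, with adjusted p of 0.122 and 0.446.

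The NAIP proteins bind bacterial flagellin or secretion-system parts and then activate Nlrc4. Naip5, the flagellin receptor, was at 7.42, 7.29, 7.28 and 7.28 in shGFP cells without IL4 and at 7.35, 7.40, 7.31 and 7.51 with IL4. In shKDM1A cells it was at 7.56, 7.67, 7.53 and 7.64 without IL4 and at 7.55, 7.63, 7.65 and 7.63 with IL4. Every shKDM1A library lay above every shGFP library. The difference was 0.28 (SE 0.044, adjusted p = 8.71e-05) without IL4 and 0.22 (adjusted p = 0.000687) with IL4. Naip2, which recognises the rod protein of bacterial secretion systems, was at 9.36, 9.42, 9.31 and 9.34 in shGFP and at 9.49, 9.41, 9.48 and 9.48 in shKDM1A cells without IL4. Here the groups touched, since library 2 of the shKDM1A group lay below library 2 of the shGFP group. Naip2 rose with knockdown by 0.10 without IL4 (adjusted p = 0.00937). With IL4 it was at 9.43, 9.38, 9.39 and 9.41 in shGFP and at 9.43, 9.50, 9.39 and 9.51 in shKDM1A cells. That difference was 0.06 (95% interval -0.01 to 0.12, adjusted p = 0.147), and it was called without library 3 of shKDM1A cells with IL4 (0.08, adjusted p = 0.0476). IL4 differences were 0.08 and 0.02 for Naip5 and 0.04 and -0.0048 for Naip2 in shGFP and shKDM1A cells, none of them called.

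The Naip genes are close copies of each other, which limits how their reads can be assigned. Of the 50-base stretches of annotated Naip5 transcripts (GENCODE M1, mm9), 32.67% also occurred in another gene, most often Naip6, and of those of Naip2, 18.17%, most often in Naip1. Only protein-coding transcripts were searched, and the share there was 1.34% for Nlrp1b, 0.21% for Aim2 and 0 for the other 6 genes. Naip5 and Naip2 values may therefore hold reads of their relatives, and how such reads were counted was not tested. No exon of the 10 genes overlapped an exon of another gene on either strand in this annotation.

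Nlrc4, the partner of the NAIP proteins, went the other way from Naip5. It was at 6.49, 6.43, 6.49 and 6.40 in shGFP and at 6.32, 6.37, 6.34 and 6.39 in shKDM1A cells without IL4, and at 6.48, 6.47, 6.49 and 6.43 in shGFP and 6.30, 6.44, 6.45 and 6.31 in shKDM1A cells with IL4. The groups did not overlap without IL4 and overlapped with IL4. Nlrc4 fell with knockdown by 0.10 in both cases on the log2 scale (adjusted p = 0.0317 without and 0.033 with IL4). Neither call was firm. The first was lost without library 1 or 3 of shGFP or 1 or 3 of shKDM1A cells without IL4 (-0.09, adjusted p from 0.0715 to 0.089), and the second without library 1, 2 or 3 of shGFP or 1 or 4 of shKDM1A cells with IL4 (-0.10 to -0.07, adjusted p from 0.0646 to 0.115). IL4 left Nlrc4 with a difference of 0.02 in each line, with intervals of -0.06 to 0.09 and -0.05 to 0.09.

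Of the 2 inflammatory caspases, Casp1 passed the test in no comparison. This protease, which cleaves pro-IL-1β, pro-IL-18 and gasdermin D, was at 9.64, 9.61, 9.55 and 9.61 in shGFP cells without IL4 and at 9.57, 9.69, 9.58 and 9.72 with IL4. In shKDM1A cells it was at 9.61, 9.55, 9.52 and 9.59 without IL4 and at 9.83, 9.58, 9.61 and 9.61 with IL4. All groups overlapped. Its knockdown difference was -0.03 without IL4 (95% interval -0.14 to 0.07) and 0.02 with IL4 (-0.08 to 0.12), and its IL4 difference was 0.04 (-0.06 to 0.14) in shGFP and 0.09 (-0.01 to 0.19) in shKDM1A cells. The last of these was 0.03 without library 1 of shKDM1A cells with IL4 (9.83), and the knockdown difference with IL4 was then -0.04.

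Casp4, known as caspase-11 in the mouse, binds lipopolysaccharide in the cytosol and cleaves gasdermin D without an upstream sensor. It fell with IL4. In shGFP cells it went from 6.64, 6.67, 6.59 and 6.57 to 6.41, 6.45, 6.45 and 6.49, groups that did not overlap, with a difference of -0.17 (SE 0.033, adjusted p = 0.000904). In shKDM1A cells it went from 6.61, 6.67, 6.69 and 6.60 to 6.55, 6.56, 6.63 and 6.47, which overlapped, with a difference of -0.09 (adjusted p = 0.0446). This second call was lost without library 1 or 3 of shGFP cells without IL4, 2 or 3 of shGFP cells with IL4, 2 or 3 of shKDM1A cells without IL4, or 1, 2 or 4 of shKDM1A cells with IL4, with differences from -0.09 to -0.07 and adjusted p from 0.0518 to 0.14. With IL4, Casp4 was higher in shKDM1A than in shGFP cells by 0.10 (adjusted p = 0.0197), a call lost without library 1 of shGFP or library 3 of shKDM1A cells with IL4 (0.09 and 0.08, adjusted p = 0.0624 and 0.0724). Without IL4 the knockdown difference was 0.03 (95% interval -0.04 to 0.09, adjusted p = 0.592).

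Gsdmd, the executioner of pyroptosis, showed the largest rise with knockdown among the 9 genes in cells with IL4. It was at 10.66, 10.64, 10.62 and 10.65 in shGFP cells without IL4 and at 10.67, 10.66, 10.69 and 10.64 with IL4. In shKDM1A cells it was at 10.93, 10.86, 10.88 and 10.95 without IL4 and at 10.98, 11.00, 11.00 and 10.90 with IL4. The lowest shKDM1A library lay above the highest shGFP library by more than the range of any single group. The difference was 0.26 (SE 0.024, adjusted p = 2.58e-07) without IL4 and 0.31 (adjusted p = 3.62e-08) with IL4, or 19.8% and 23.7% on the deposited scale. IL4 gave a difference of 0.02 in shGFP cells (95% interval -0.03 to 0.07, adjusted p = 0.642) and 0.06 in shKDM1A cells (0.01 to 0.12, adjusted p = 0.0608). The second was called without library 4 of shKDM1A cells without IL4 or library 4 of shKDM1A cells with IL4 (0.08 and 0.09, adjusted p = 0.0345 and 0.00911), and after median centring (0.07, adjusted p = 0.0373).

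Counted together, 6 of the 9 genes tested were called with KDM1A depletion in each setting, in both directions. Without IL4, 3 rose (Gsdmd, Naip5 and Naip2) and 3 fell (Aim2, Nlrp3 and Nlrc4), where 38.2% of all tested genes were called (19.7% higher and 18.4% lower). The 2 groups did not overlap for 5 of the 9 genes, against 37.4% of all tested genes. With IL4, 3 rose (Gsdmd, Naip5 and Casp4) and 3 fell (Aim2, Nlrp1b and Nlrc4), where 40.7% of tested genes were called (20.9% higher and 19.8% lower), and the groups did not overlap for 4 genes, against 36.4% of all. This second count was less firm, with 3 called without library 1 of shGFP cells with IL4 and 2, both higher, without a filter on low values. In that unfiltered run, 2324 of all 25094 genes were called higher and 2093 lower. Of the 3 genes that fell (Aim2, Nlrp1b and Nlrc4), 1 was called without library 1 or 2 of shGFP cells with IL4 or library 1 of shKDM1A cells with IL4. The balance of higher and lower calls over all tested genes turned with the scaling. Of the genes called, 51.7% were higher without and 51.3% with IL4, but 43.2% and 45.0% after quantile normalization, and 51.8% and 56.7% after median centring. The median difference over the 9 genes was -0.03 without IL4 and 0.02 with IL4. In bulk RNA, fewer cells of one kind and less RNA per cell cannot be told apart.

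IL4 called fewer of them. In shGFP cells 3 of the 9 fell (Aim2, Casp4 and Nlrp3) and 0 rose, where 26.9% of tested genes were called (13.1% higher and 13.7% lower), and the groups did not overlap for 2 genes, against 28.3% of all. In shKDM1A cells 1 fell (Casp4) and 0 rose, where 27.1% were called (13.6% higher and 13.5% lower), and the groups overlapped for all 9 genes, while 25.7% of all tested genes had groups that did not overlap. At an unadjusted p under 0.05, 1 gene was higher in each line, Nlrp1b in shGFP and Gsdmd in shKDM1A cells. With 9 genes these counts are a description, and the list as a whole was not tested.

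**Figure D2:**
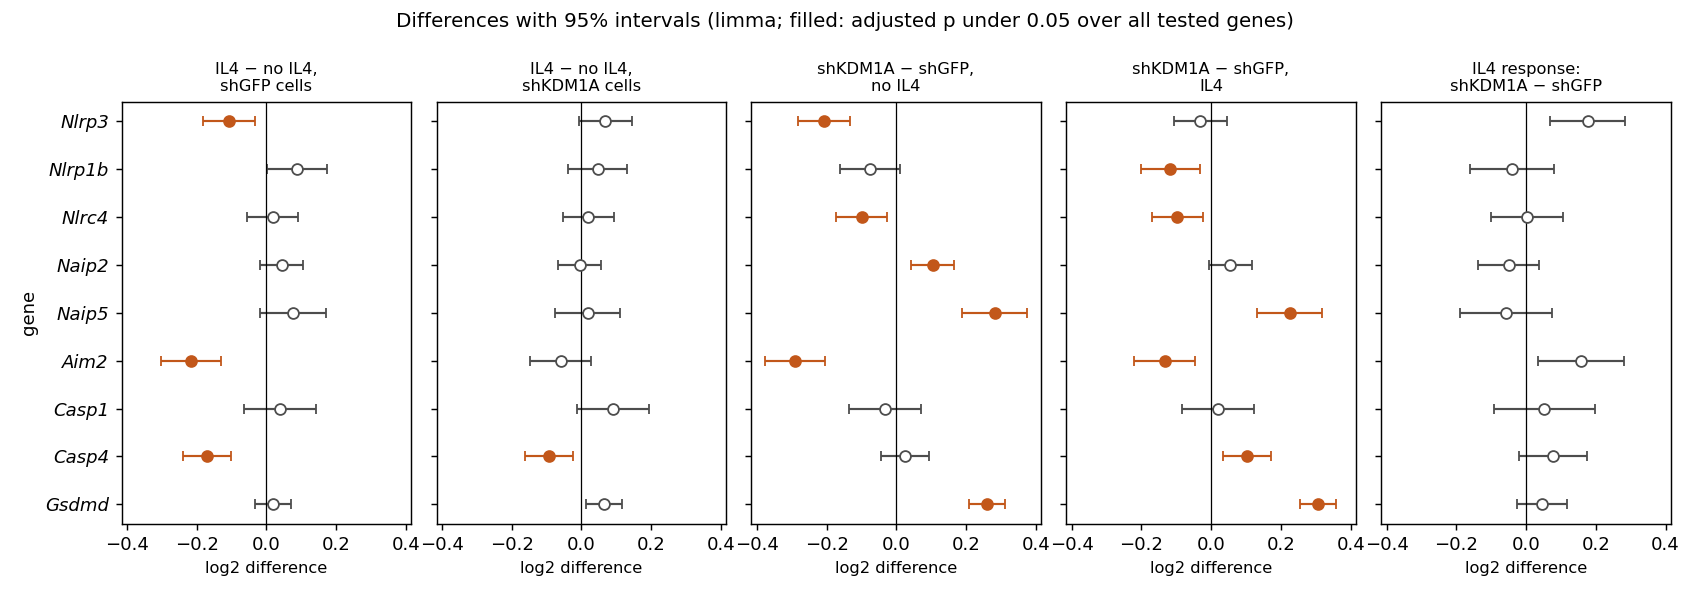
Log2 differences (x axis) of the 9 tested genes (y axis) in the 5 comparisons, with points for the difference of group means and bars for its 95% interval from limma, filled where the adjusted p over all 12905 genes is under 0.05. Gsdmd and Naip5 lie right of 0 in both knockdown panels, Aim2 lies left of 0 in both, and no point is filled in the panel on the difference in IL4 response.

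The difference in IL4 response between shKDM1A and shGFP cells was called by limma for 0 of the 9 genes, where 6.13% of tested genes were called (3.56% higher and 2.57% lower). Of the genes called 58.0% were higher, or 66.2% after median centring and 55.4% after quantile normalization. At an unadjusted p under 0.05 there were 2 genes, Nlrp3 and Aim2. For Nlrp3 the IL4 response was 0.18 higher in shKDM1A cells (95% interval 0.07 to 0.28), and its adjusted p of 0.05 lay just above the threshold before rounding. It was called without library 4 of shGFP cells without IL4, library 2 of shGFP cells with IL4 or library 3 of shKDM1A cells with IL4 (0.20, 0.19 and 0.20, adjusted p = 0.0327, 0.0439 and 0.0322). With the replicate number as a block it was also called (0.18, adjusted p = 0.0405), as it was with a minimum of 5, a trended prior variance, median centring or quantile normalization, and over all alternatives its adjusted p ran from 0.0306 to 0.137. For Aim2 the difference was 0.16 (0.04 to 0.28, adjusted p = 0.116), and it was called without library 2 of shKDM1A cells with IL4 (0.19, adjusted p = 0.0484). The intervals of the other 7 genes included 0. They ran from -0.19 to 0.08 for Naip5 and from -0.09 to 0.20 for Casp1, so that differences of that size in the IL4 response could not be told from none at this number of libraries.

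The wider pathway was followed in 5 lists of related genes. These were chosen with earlier results of these data known, so their counts beside the share of all tested genes are a description. The list linked to interferon, which holds, among others, interferon receptors, interferon regulatory factors, STAT2, guanylate-binding proteins and nucleic acid sensors known to license inflammasomes, had the largest share of called genes with knockdown. Of its 15 genes, all tested, 11 rose and 2 fell without IL4, where 19.7% of all tested genes rose and 18.4% fell, and 10 rose and 1 fell with IL4, where 20.9% rose and 19.8% fell. The list's medians were 0.20 and 0.25, and the median of all tested genes was -0.0027 and -0.0024. Zbp1, a sensor of Z-form nucleic acid that can trigger Nlrp3 and cell death, went from a mean of 6.06 to 6.64 without IL4 and from 6.11 to 6.80 with IL4 (differences of 0.59 and 0.70, adjusted p = 1.67e-07 and 2.05e-08). Stat2, part of the interferon-activated transcription complex, rose by 0.55 and 0.60. Irf8, a regulator of macrophage identity that is known to drive Naip genes, rose by 0.27 without and 0.33 with IL4 (adjusted p = 2.82e-06 and 3.8e-07). IL4 lowered Irf8 by 0.36 in shGFP and 0.31 in shKDM1A cells. Against the rise with knockdown went the receptor gene Ifnar2, with differences of -0.15 without and -0.14 with IL4 (adjusted p = 0.000343 and 0.000538). Tmem173 (STING) also fell with knockdown without IL4 (-0.12, adjusted p = 0.00361), and differed by -0.03 with IL4 (adjusted p = 0.398). Gbp5, which promotes Nlrp3 assembly, was low at 2.84 to 2.89 in all 4 group means and passed no test, with a knockdown difference of 0.05 with IL4 (95% interval 0.00 to 0.09, adjusted p = 0.0806) that was called without library 3 of shKDM1A cells with IL4 (0.06, adjusted p = 0.0257), with a trended prior variance (adjusted p = 0.03) and after median centring (0.06, adjusted p = 0.0431). With IL4, 3 genes of this list rose and 4 fell in shGFP cells, and 4 rose and 5 fell in shKDM1A cells, so that calls went both ways, where 26.9% and 27.1% of all tested genes were called. The sensor gene Tmem173 (STING) fell in both lines (-0.18 in shGFP and -0.09 in shKDM1A cells) and the receptor gene Ifnar2 rose in both (0.16 and 0.17). The counts in shKDM1A cells fell to 2 and 3 without library 2 of shKDM1A cells without IL4, and 2 rose without library 4 of shKDM1A cells with IL4. limma called 0 genes of it in the difference in IL4 response, 1 had an unadjusted p under 0.05, and each alternative run also gave 0 calls.

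Among 13 tested relatives of the sensors, 3 rose and 1 fell with knockdown without IL4 and 3 rose and 2 fell with IL4, where 38.2% and 40.7% of all tested genes were called, which is near the share in this list. Without library 1 of shKDM1A cells without IL4, or library 3 of shKDM1A cells with IL4, 5 rose without IL4. Ifi204, a DNA-binding protein of the same family as Aim2, rose by 0.43 and 0.62, the reverse of Aim2. Nlrc3, described as a brake on innate signalling, fell by 0.34 without and 0.26 with IL4 on the log2 scale, and Nlrc5, the activator of MHC class I genes, rose by 0.32 and 0.26. IL4 raised 2 and lowered 3 of these genes in shGFP cells and raised 2 and lowered 2 in shKDM1A cells, where 1 fell without library 2, 3 or 4 of shKDM1A cells without IL4 or library 1 or 3 of those with IL4 (all tested genes, 26.9% and 27.1% called). Nlrp10, an NLR without the ligand-sensing repeats, rose with IL4 by 0.31 in shGFP and 0.12 in shKDM1A cells, and its IL4 response was 0.19 lower in shKDM1A cells (difference -0.19, adjusted p = 0.0118), the only call of 13 in that comparison, where 6.13% of all tested genes were called. Without library 4 of shKDM1A cells with IL4, 2 were called lower there, and without library 1 of those without IL4, 1 was called higher. Nlrx1, a mitochondrial NLR, rose with IL4 by 0.28 and 0.25, and Nod2, a sensor of bacterial cell wall, fell by 0.12 in shGFP and 0.17 in shKDM1A cells on the log2 scale.

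Of 22 genes that activate or restrain the platforms, all tested, 8 rose and 8 fell with knockdown without IL4 and 7 rose and 4 fell with IL4, where 38.2% and 40.7% of all tested genes were called. Without library 3 of shGFP cells without IL4, 5 fell in the first of these. Trim30a, an interferon-induced gene reported to restrain Nlrp3, had the largest change of the 5 lists with knockdown, from a mean of 9.83 to 10.76 without IL4 (0.93, adjusted p = 2.73e-11) and from 9.50 to 10.64 with IL4 (1.14, adjusted p = 2.31e-12). Dpp8, one of the peptidases that hold Nlrp1b in check, rose by 0.32 without and 0.29 with IL4, and the channel gene Panx1 fell by 0.27 and 0.34 on the log2 scale. The kinase partner of Nlrp3, Nek7, differed by 0.01 without IL4 (95% interval -0.05 to 0.06) and fell by 0.11 with IL4 (adjusted p = 0.00362). IL4 raised 4 and lowered 7 of these genes in shGFP cells and raised 5 and lowered 4 in shKDM1A cells, where 2 fell without library 1 or 2 of shKDM1A cells without IL4 or library 3 of those with IL4, and 1 without library 2 of those with IL4 (all tested genes, 26.9% and 27.1% called). Cd36, the scavenger receptor whose lipid cargo can activate Nlrp3, rose with IL4 by 1.73 in shGFP and 1.40 in shKDM1A cells, and Nfkb1, a priming factor, by 0.33 and 0.52. In the difference in IL4 response 5 genes were higher (3 without library 3 of shGFP cells with IL4) and 1, Cd36, was lower (-0.33, adjusted p = 8.41e-06), or 2 without library 4 of shKDM1A cells with IL4, where 3.56% of all tested genes were higher and 2.57% lower. Trim30a was among the higher ones (0.21, adjusted p = 0.0455), a call lost on leaving out any library other than 3 or 4 of shGFP cells without IL4, 1 of shGFP cells with IL4 or 3 of shKDM1A cells with IL4 (0.19 to 0.22, adjusted p from 0.0536 to 0.0898). It was also lost with the replicate number as a block (adjusted p = 0.0723) and without a filter (adjusted p = 0.138).

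Of 21 tested genes of other caspases and cell death, 8 rose and 2 fell with knockdown without IL4 and 7 rose and 3 fell with IL4, where 38.2% and 40.7% of all tested genes were called. Without library 1 of shGFP cells without IL4, 1 fell in the first of these. Ninj1, which ruptures the plasma membrane after gasdermin pores have formed, rose together with Gsdmd. Its group mean went from 10.95 to 11.44 without IL4 and from 10.64 to 11.07 with IL4 (differences of 0.49 and 0.43, adjusted p = 1.03e-09 and 5.16e-09), and IL4 lowered it by 0.31 in shGFP and 0.37 in shKDM1A cells. Birc3, an inhibitor-of-apoptosis protein, rose by 0.41 and 0.51. Casp8, a caspase that links apoptosis to pyroptosis, differed by 0.07 (95% interval -0.01 to 0.14) and 0.06 (-0.01 to 0.13), and the second was called without library 3 of shKDM1A cells with IL4 (0.09, adjusted p = 0.0495). IL4 raised 3 and lowered 5 of the 21 in shGFP cells and raised 2 and lowered 5 in shKDM1A cells, where 26.9% and 27.1% of all tested genes were called. The apoptotic caspase gene Casp6 rose by 0.69 and 0.89, and Cflar, which restrains Casp8, fell by 0.31 and 0.42 on the log2 scale. Casp6 was the only one of the 21 called in the difference in IL4 response (0.20, adjusted p = 0.0185), against 6.13% of all tested genes, and 1 gene was called lower without library 2 or 4 of shKDM1A cells with IL4.

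The cytokine end of the pathway was weakly expressed in part. Il1b, the main substrate of Casp1, did not reach the minimum level, with values between 0.83 and 0.89 in the 16 libraries, whereas Il18 was at group means of 7.40 to 7.55. Il18 did not pass the test with knockdown (-0.02, 95% interval -0.12 to 0.08, without IL4, and -0.10, -0.20 to 0.00, with IL4), though the second was called without library 3 of shKDM1A cells with IL4 (-0.15, adjusted p = 0.00991). It rose with IL4 in shGFP cells by 0.14 (adjusted p = 0.0482), a call lost on leaving out any library other than 2 of shGFP cells with IL4, 2 of shKDM1A cells without IL4 or 1, 2 or 3 of shKDM1A cells with IL4 (0.11 to 0.15, adjusted p from 0.0503 to 0.135), and also without a filter (adjusted p = 0.147) and after quantile normalization (0.13, adjusted p = 0.0567). Of 11 tested cytokine and receptor genes, 2 rose and 4 fell in each knockdown comparison, where 38.2% and 40.7% of all tested genes were called without and with IL4. Without library 3 of shKDM1A cells with IL4, 7 fell in the second. Il1rn, the secreted antagonist of the IL-1 receptor, had group means of 10.14 and 9.61 in shGFP cells without and with IL4 and of 9.68 and 9.36 in shKDM1A cells. It fell with knockdown by 0.46 and 0.26 and with IL4 by 0.52 in shGFP and 0.32 in shKDM1A cells, on the log2 scale. Its IL4 response differed between the lines by 0.20 (adjusted p = 0.0461), a call lost on leaving out any library other than 4 of shKDM1A cells without IL4 or 1, 2 or 4 of shKDM1A cells with IL4 (0.17 to 0.21, adjusted p from 0.0644 to 0.0856). Il18rap, a subunit of the IL-18 receptor, fell with knockdown by 0.46 and 0.29, and Il1rap, a subunit of the IL-1 receptor, rose with IL4 by 0.43 and 0.46. IL4 raised 3 and lowered 2 of the 11 in shGFP cells, and raised 2 and lowered 2 in shKDM1A cells, where 26.9% and 27.1% of all tested genes were called.

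**Figure D3:**
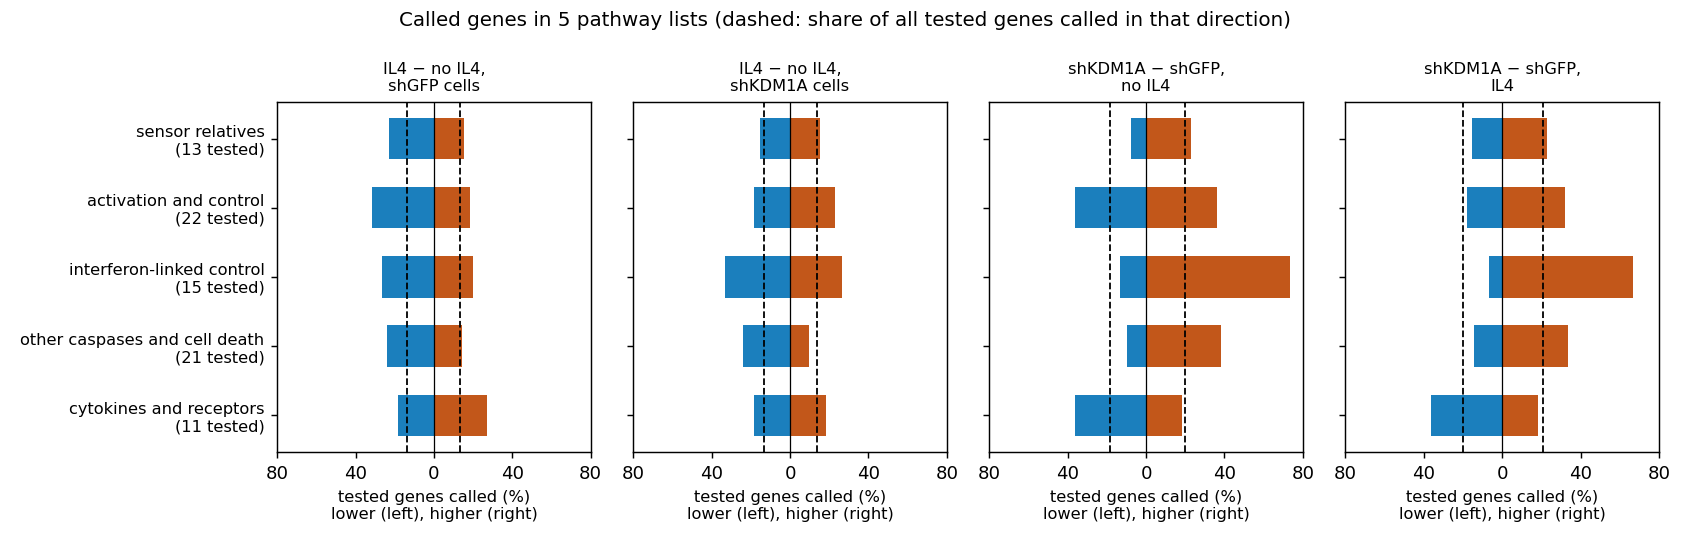
Share of the tested genes in each of 5 pathway lists (y axis) that were called higher (right) or lower (left) in 4 comparisons (x axis, percent of tested genes), with dashed lines at the share of all 12905 tested genes called in that direction. The interferon-linked list reaches 11 of 15 and 10 of 15 genes higher in the knockdown panels and 4 of 15 higher and 5 of 15 lower with IL4 in shKDM1A cells.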

How the data were processed

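Total RNA of 16 RAW libraries was sequenced. Per the study's methods, reads were aligned to mm9 with HISAT2 and Bowtie2. Per the file headers they were counted over exons on both strands with HOMER, in rows that carry RefSeq identifiers, and the authors deposited 1 log2 value per gene and library after DESeq2. The transformation is not given in the sources used here, and the values are not counts, so no count model was used. Where few tags were counted the values hardly vary, so log2 differences understate changes of low genes. The mm9 genome is of C57BL/6 origin while RAW cells are BALB/c-derived. The effect of this on mapping was not tested. Further deposited columns hold the authors' own comparisons, each with its fold and its raw and adjusted p, and were not used, and neither were the 171 samples of other assays.

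A gene was tested when 4 or more libraries reached a log2 value of 1 (12905 of 25094 genes), with limma 3.58.1 in R 4.3.3 (group means over 16 libraries, 5 comparisons, two-sided, Benjamini-Hochberg over all tested genes, threshold 0.05). Intervals are 95% intervals of limma, not adjusted for the number of genes. The procedure was also run on simulated data, whose outcome is not given here and is not used as support for the calls. The alternatives were no filter, a minimum of 5, only the groups compared, the replicate number as a block, a trended prior variance, median centring, quantile normalization and leaving out each library. The 10 genes and the lists were chosen with earlier results of these data known. Named besides them are Kdm1a, Mrc1 (a further gene meant as a check of IL4 is not reported here), from each list the called genes with the 2 largest changes per comparison, and Il1b, Il18, Il1rn, Nek7, Casp8, Ninj1, Irf8 and Gbp5. Genes resembling a member were to be named where its group means differed by over 0.5, which held for 0 of them.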

Additional observations from a re-analysis of the deposited data

Results flagged for a closer look

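In 36 sets of 4 libraries (9 genes in 4 groups), the gap between the outermost library and its neighbour was above Dixon's 95% critical value, relative to the range, in 5, where chance gives about 1 in 20. These were Nlrp3 in library 3 of shKDM1A cells with IL4 (10.45, low), Casp1 in library 1 of the same group (9.83, high), Gsdmd in library 4 of the same group (10.90, low), Naip2 in library 2 of shKDM1A cells without IL4 (9.41, low) and Naip5 in library 1 of shGFP cells without IL4 (7.42, high). The 3 values in shKDM1A cells with IL4 came from 3 different libraries. The Gsdmd and Naip5 libraries named still lay on their group's side of the knockdown comparison, above or below every library of the other line.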

How the results depend on the processing

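Of the 16 called differences of the 9 genes, 9 were called in every one of the 23 alternatives (Gsdmd and Naip5 in both knockdown comparisons, Aim2, Nlrp3 and Naip2 in the one without IL4, and Aim2 and Casp4 with IL4 in shGFP cells), and none changed sign. Without a filter, where all 25094 genes are tested (8488 of them at exactly 0 throughout), 2 genes were called in shKDM1A against shGFP cells with IL4 (0 lower), 0 with IL4 in shKDM1A cells (0 lower), and 431 rather than 791 of all genes in the difference in IL4 response. Of all 25094 genes in that run, 2324 were higher and 2093 lower in the knockdown with IL4. With IL4 in shKDM1A cells these numbers were 1459 and 1363. Testing only the groups compared or using a trended prior variance also left 0 of the 9 genes called (0 lower) with IL4 in shKDM1A cells, and median centring left 1 higher (Gsdmd) and 0 lower. In the difference in IL4 response 1 gene, Nlrp3, was called higher under the minimum of 5, the replicate block, the trended prior variance, median centring and quantile normalization (1 called in each), with adjusted p from 0.0306 to 0.0455. The 7 other calls (Nlrp3 with IL4 in shGFP cells, Casp4 with IL4 in shKDM1A cells, Nlrc4 in both knockdown comparisons, and Nlrp1b, Aim2 and Casp4 in the one with IL4) were all lost without a filter (adjusted p from 0.0506 to 0.114), Nlrp3, Nlrc4 with IL4 and Casp4 with IL4 in shKDM1A cells also when only the groups compared were fitted (0.0561 to 0.0979), and 5 more times under the scalings or the trended variance (0.0516 to 0.0804). Without a filter the genes of activation and control that fell with IL4 in shKDM1A cells were 1 rather than 4, those higher in the difference in IL4 response 2 rather than 5, and the interferon-linked genes that rose and fell with IL4 in shKDM1A cells 2 and 3 rather than 4 and 5. The calls of Casp6, Il1rn and Trim30a in the difference in IL4 response were also lost there. Without a filter, or with only the groups compared, 1 rather than 3 of the other caspase and cell death genes fell with knockdown with IL4, and 1 rather than 2 of the sensor relatives fell with IL4 in shKDM1A cells. Fitting only the groups compared, or quantile normalization, gave 2 rather than 4 activation and control genes that fell with IL4 in shKDM1A cells.

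Leaving out 1 library at a time gave 0 to 2 called with IL4 in shKDM1A cells (0 to 1 higher, 0 to 1 lower), 3 to 6 in the knockdown with IL4 (1 to 3 lower), and 0 to 1 in the difference in IL4 response (0 to 1 higher). The count of 3 in the knockdown with IL4 arose without library 1 of shGFP cells with IL4, and 1 gene was lower there and without library 2 of that group or library 1 of shKDM1A cells with IL4. With IL4 in shKDM1A cells, 2 were called without library 4 of shKDM1A cells without IL4.

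Differences near 0 that were not called changed sign. With IL4 in shKDM1A cells Naip2 was 0.0053 after median centring and 0.0083 after quantile normalization, Nek7 was -0.0022 in the knockdown without IL4 after quantile normalization, and Casp8 was 0.00088 in the difference in IL4 response after median centring. Leaving out 1 library gave ranges of -0.0010 to 0.032 and -0.0047 to 0.045 for Nlrc4 with IL4 in shGFP and shKDM1A cells, and in shKDM1A cells of -0.023 to 0.017 for Naip2, -0.0040 to 0.040 for Naip5, -0.0038 to 0.039 for Kdm1a and -0.0023 to 0.026 for Gbp5. In the difference in IL4 response the ranges were -0.022 to 0.028 for Nlrc4, -0.0058 to 0.080 for Casp1 and -0.042 to 0.020 for Casp8. In the knockdown they were -0.038 to 0.048 for Casp1 with IL4 and -0.0080 to 0.019 for Nek7 without IL4.

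Among all genes called with IL4 in shKDM1A cells, 50.1% were higher, or 56.5% after median centring and 51.0% after quantile normalization, and in shGFP cells 48.9%, 49.3% and 48.6%.

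Same-numbered libraries of different groups correlated between -0.34 and 0.27 in their deviations from the group means, above 0.1 in 3 of 24 pairs, so the numbers were not taken to pair the libraries. A library still correlated best with its own number in 22 of 48 cases, above the 12 to be had with no preference, so the numbers may carry some pairing. With the replicate number as a block, 732 rather than 791 of all genes were called in the difference in IL4 response. With 4 libraries a group, the standard error of a pairwise difference of the 9 genes was 0.024 to 0.048, and since the values used here are not counts, no interval for counting error could be given.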
